A study of Mus musculus with 6 samples.

Results

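Carbonyl reductases use NADPH to turn reactive aldehydes and ketones into alcohols, and 8 mouse genes for such enzymes were followed here in 3T3 fibroblasts made to express human PARG (hPARG), the hydrolase that takes poly(ADP-ribose) off proteins. The genes were chosen by name, as Cbr1, Cbr2, Cbr3, Cbr4, Dcxr, Akr1b3, Akr1b8 and Akr1a1, and each had a single row among the 41819 genes of the deposited table. Cbr2 led to the choice of the group, because its RNA is lower with hPARG in this same comparison. Its difference is therefore given as a description with no test, while the other 7 were taken for being related enzymes. All 6 samples came from a single clone of mouse 3T3 cells, labelled as malignant, that carries a lentiviral PARG cDNA with a cleavable mClover3 reporter under the TetOne doxycycline-inducible promoter. The 3 control samples received no doxycycline and the 3 hPARG samples received 500 ng/ml doxycycline for 72 h. All samples were kept in puromycin, the drug that selects for the cassette. Each sample is called a dish here, although the labels speak of wells in a 6-well plate where the methods give 10 cm dishes. Doxycycline was given to the hPARG dishes alone, so its own effect and that of hPARG cannot be told apart, and with 1 clone nothing is known of other clones.

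The 8 enzymes belong to 2 protein superfamilies with unrelated folds. Cbr1, Cbr2, Cbr3, Cbr4 and Dcxr are short-chain dehydrogenases/reductases, and Akr1b3, Akr1b8 and Akr1a1 are aldo-keto reductases. Both kinds clear lipid aldehydes, quinones and sugar-derived dicarbonyls, and several also reduce prostaglandins, steroids or drugs. Cbr2 is the mouse lung carbonyl reductase, a mitochondrial enzyme that is also known as an adipocyte protein, and Dcxr is the dicarbonyl and L-xylulose reductase of the uronate cycle of glucose.

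The sequences show how far reads of one member can be told from those of another. In GENCODE release M21 on GRCm38, Cbr2 (ENSMUSG00000025150, chromosome 11, 120729489 to 120732114, minus strand) and Dcxr (ENSMUSG00000039450, chromosome 11, 120725399 to 120727281, minus strand) lie head to tail, with 2207 bases between the end of Cbr2 and the start of Dcxr. Both code for 244 residues, and their coding sequences were identical at 506 of 732 aligned bases (69.1%), the closest match of Cbr2 among the members. Cbr1 (ENSMUSG00000051483, chromosome 16, 93605853 to 93610505, plus strand) and Cbr3 (ENSMUSG00000022947, chromosome 16, 93683215 to 93690990, plus strand) are 72.7 kb apart and were identical at 77.8% of aligned coding bases. Akr1b3 (ENSMUSG00000001642, chromosome 6, 34302434 to 34317478, minus strand) and Akr1b8 (ENSMUSG00000029762, chromosome 6, 34354119 to 34368463, plus strand) are 36.6 kb apart and were identical at 72.1%. Cbr4 (ENSMUSG00000031641, chromosome 8, 61487734 to 61506694, plus strand) and Akr1a1 (ENSMUSG00000028692, chromosome 4, 116636510 to 116651680, minus strand) have no other member on their chromosome. The longest stretch of coding sequence that the members of each neighbouring pair share follows, from base 169 of Cbr2, base 146 of Cbr1 and base 217 of Akr1b3, counted from the first base of the start codon.
Cbr2 and Dcxr: gtgtgtgtggacctgg
Cbr1 and Cbr3: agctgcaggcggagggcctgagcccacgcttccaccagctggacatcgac
Akr1b3 and Akr1b8: ctcttcattgtcagcaagctgtgg
These runs of 16, 50 and 24 bases are shorter than the 150 bp reads, so a read from either gene of a pair carries differences. Copies outside the group came closer. Of the 50-base windows of the Cbr2 transcript, 15.1% also occur in Gm11771, an unprocessed pseudogene on chromosome 11 (120765310 to 120767365, plus strand) that was not analysed here. Of the Akr1b3 windows, 86.2% occur in at least 1 of 5 other genes, 4 of which are processed pseudogenes not analysed here, and the fifth, Gm38056, had 0 counts in all 6 dishes. The counts of Akr1b3, and to a smaller degree those of Cbr2, are uncertain where such copies are transcribed. For the other members the share was at most 4.12%, and no exon base of a member lies in an exon of another gene.

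The promoter windows of Cbr2 and Dcxr are shown because these neighbours differed in level and in their difference between the groups. Each runs from 250 bases before to 50 bases after the RefSeq start, on the minus strand of GRCm38.p6, at chr11:120731972-120732271 for Cbr2 and chr11:120727235-120727534 for Dcxr. Capitals mark a CCAAT box on either strand.
Cbr2: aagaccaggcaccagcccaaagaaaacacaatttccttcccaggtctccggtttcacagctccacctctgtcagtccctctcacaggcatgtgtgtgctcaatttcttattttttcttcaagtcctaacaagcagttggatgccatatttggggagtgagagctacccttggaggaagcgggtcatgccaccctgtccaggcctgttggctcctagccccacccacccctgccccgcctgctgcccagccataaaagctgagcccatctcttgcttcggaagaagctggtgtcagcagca
Dcxr: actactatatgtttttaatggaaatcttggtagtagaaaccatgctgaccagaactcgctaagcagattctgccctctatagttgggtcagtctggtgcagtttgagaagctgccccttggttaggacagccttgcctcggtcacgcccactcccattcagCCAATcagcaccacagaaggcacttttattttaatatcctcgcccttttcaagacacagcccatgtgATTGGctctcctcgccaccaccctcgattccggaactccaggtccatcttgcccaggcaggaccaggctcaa
Of the 8 members, 7 have a promoter window in the RefSeq table. Each was searched on both strands for the letters of the antioxidant response element (TGACNNNGC, held by 12.4% of 32851 such windows), AP-1 (TGANTCA, 7.81%), C/EBP (TTGCNNAA, 10.8%), the E-box (CACGTG, 7.15%), the TATA box (TATAAA, 13.6%), the CCAAT box (37.4%), the GC box (GGGCGG, 35.7%) and the NF-kB motif (6.93%). The letters of AP-1 and the antioxidant response element can overlap. The Cbr2 window held none of these. The Dcxr window held the CCAAT box from base -89 to -85 and, on the other strand, from base -22 to -18. Cbr1 held a CCAAT box, Cbr3 and Akr1b8 held GC boxes, and Akr1b8 held a TATAAA on the other strand. The Cbr2 window had 4 CpG dinucleotides and the Dcxr window 7, against a median of 7 over all windows.

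The gene counts of a dish summed to 21619908 at the lowest and 25263818 at the highest, and 11509 genes passed a filter on low counts and were tested together. In CPM, counts scaled to the size of the library, the floor of 3 counts was worth 0.119 to 0.139 and covers counting error only. The dishes numbered 2 stood apart on the first principal component (42.0% of the variance), at 21.6 in control and 24.7 in hPARG, with the other 4 between -27.4 and -3.17. Nothing in the labels says how separate the 3 dishes of a group were beyond their plating, so p-values measure the spread between these dishes. The mouse gene Parg differed by a log2 fold change of 0.04 (SE 0.112, FDR = 0.999), and the human cassette has no row of its own, so the labels could not be checked on it.

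Cbr2 was the least abundant of the 8 genes and the one with the largest difference between the groups. The control dishes held 31, 32 and 32 counts on Cbr2 and the hPARG dishes 4, 7 and 5. Every control dish lay above every hPARG dish, as for 6.00% of the tested genes (3.61% had the hPARG dishes above), and the hPARG dishes lay just above the floor of 3 counts. After TMM normalization Cbr2 averaged 1.36 CPM with an SD of 0.150 over the 3 control dishes and 0.234 CPM with an SD of 0.0527 over the 3 hPARG dishes. The fitted log2 fold change was -2.51 (SE 0.333), or 5.68-fold lower. This rests on 95 counts in control and 16 in hPARG. Without the dishes numbered 2 the log2 fold change was -2.68. All 3 control dishes exceeded the 0.444 CPM that the filter on low counts asks for, and none of the hPARG dishes did, so Cbr2 entered the test through its control dishes alone. In control dishes its RPKM (a read count scaled by gene length and library size) was above that of 14.6% of the tested genes. Among the 11509 tested genes 7 had a more negative log2 fold change.

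Dcxr, the nearest relative and neighbour of Cbr2, showed no difference of that size. Its counts were 489, 431 and 475 without hPARG and 462, 397 and 418 with it. The groups overlapped, with a mean of 20.0 ± 2.08 CPM for the control and 18.9 ± 2.42 CPM for the hPARG dishes (SD, n = 3). The log2 fold change was -0.08 (SE 0.135, FDR = 0.999), with a 95% interval from -0.39 to 0.23. Per gene length, Cbr2 stood at 0.0574 ± 0.00461 of the RPKM of Dcxr in control dishes (SD, n = 3) and at 0.0107 ± 0.00382 in hPARG dishes (SD, n = 3), a description that carries the difference in Cbr2 with it.

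The 3 remaining carbonyl reductases differed by less than their spread between dishes. Cbr1, the cytosolic enzyme that reduces quinones, prostaglandin E2 and anthracyclines, held 326, 220 and 341 counts in control and 364, 220 and 327 in hPARG dishes. The dishes numbered 2 were the lowest of both groups, and the log2 fold change of Cbr1 was 0.09 (SE 0.263, FDR = 0.999). Its 95% interval, from -0.52 to 0.70, was the widest of the 7 tested members. Cbr3, its close paralog with a narrower range of known substrates, held 1917, 1318 and 1926 counts in control and 1586, 1193 and 1735 in hPARG dishes. Again the dishes numbered 2 were the lowest, and the log2 fold change was -0.14 (SE 0.222, FDR = 0.999, 95% interval from -0.66 to 0.37). Cbr4, a mitochondrial reductase that works with Hsd17b8 in fatty acid synthesis, held 261, 183 and 220 counts in control and 233, 229 and 241 in hPARG dishes. Scaled for depth, Cbr4 stood at 10.2, 7.87 and 10.4 CPM in control and 10.7, 9.44 and 11.1 CPM in hPARG dishes, so that hPARG dishes 1 and 3 lay above the control range and dish 2 inside it. The log2 fold change was 0.13 (SE 0.146, FDR = 0.999, 95% interval from -0.20 to 0.47). The RPKM of Cbr3 was 5.80, 5.91 and 5.57 times that of Cbr1 in control dishes and 4.30, 5.35 and 5.23 times in hPARG dishes. These ratios did not overlap between the groups, but 3 dishes against 3 cannot give an exact permutation p below 0.1, and 3 such ratios were formed.

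The aldo-keto reductases were the most abundant members and did not separate the groups either. Akr1a1, the aldehyde reductase that makes gulonate from glucuronate, held 11721, 8383 and 9577 counts in control and 10215, 8609 and 8401 in hPARG dishes. The ranges overlapped, the mean being 423 ± 54.3 CPM for the control and 403 ± 58.7 CPM for the hPARG dishes (SD, n = 3), with a log2 fold change of -0.07 (SE 0.146, FDR = 0.999). Akr1b3, the aldose reductase that makes sorbitol from glucose, held 3682, 2527 and 3375 counts in control and 3178, 2727 and 2817 in hPARG dishes. In CPM all 3 hPARG dishes (112 to 146) lay inside the range of the control dishes (109 to 159), and the log2 fold change was -0.09 (SE 0.163, FDR = 0.999). Akr1b8, an aldose reductase-like enzyme first known as a gene that fibroblast growth factor induces in fibroblasts, held 2464, 1848 and 2016 counts in control and 2118, 2054 and 2182 in hPARG dishes. Scaled for depth, Akr1b8 ranged from 79.5 to 96.2 CPM in control and stood at 97.1, 84.6 and 100 CPM in hPARG dishes, so that hPARG dishes 1 and 3 lay just above the control range and dish 2 inside it. The log2 fold change was 0.06 (SE 0.118, FDR = 0.999). The RPKM of Akr1b3 was between 1.28 and 1.56 times that of Akr1b8 in control and between 1.20 and 1.40 times in hPARG dishes. Akr1b8 had the narrowest 95% interval of the 7 tested members, from -0.22 to 0.33.

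Of the 7 members other than Cbr2, 0 were called in edgeR's quasi-likelihood test at an FDR under 0.05 and more than 2-fold, against 0.0869% of all tested genes (0.00869% higher and 0.0782% lower). At an unadjusted p under 0.05 there were also 0 of 7, against 3.95% of all tested genes, and DESeq2 likewise gave 0 at an FDR under 0.05. The groups overlapped for all 7, whereas 9.62% of the tested genes did not overlap between the groups. With so small a background, 0 of 7 says little, and the intervals say more. The log2 fold changes of the 7 lay between -0.14 and 0.13, with a median of -0.07 against 0.00 over all tested genes, 3 of them above 0 and 4 below. The 95% interval that reached farthest from 0, that of Cbr1, ended at a 1.62-fold difference. Without the dishes numbered 2 the 7 values lay between -0.13 and 0.15. In bulk RNA, fewer cells that express a gene and less RNA per cell cannot be told apart.

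**Figure D1:**
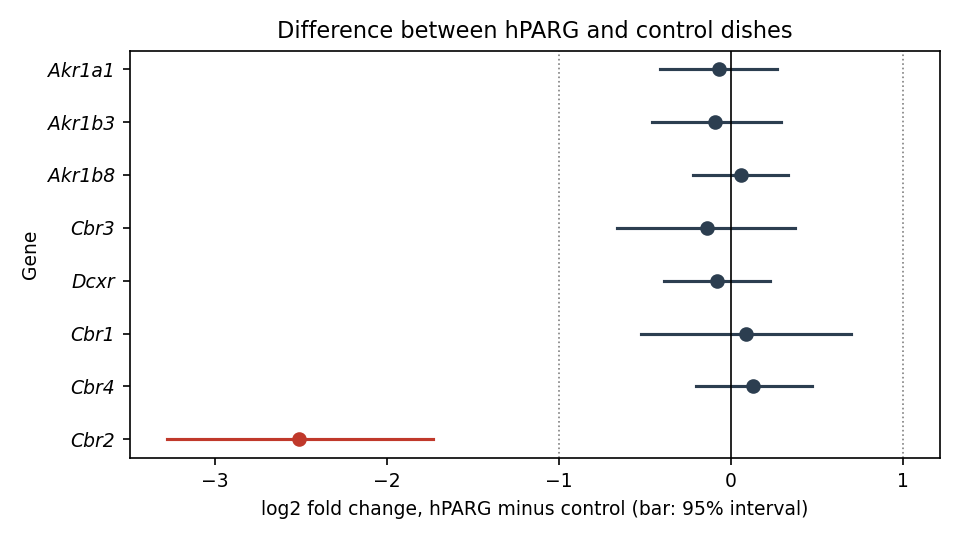
Log2 fold change of hPARG against control dishes (x axis) for each of the 8 genes (y axis, ordered by control level), from edgeR's fit to 3 dishes per group, with bars for the 95% interval, a solid line at 0 and dotted lines at 2-fold. Cbr2 lies at -2.51, and the other 7 lie between -0.14 and 0.13 with intervals that include 0. Cbr2 was chosen on this same comparison, so its point and bar are a description and no test.

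Compared per gene length, the RPKM values spanned more than 2 orders of magnitude. In control dishes the means ran from Akr1a1 at 256, Akr1b3 at 87.1, Akr1b8 at 61.6 and Cbr3 at 54.6 to Dcxr at 19.9, Cbr1 at 9.51, Cbr4 at 1.99 and Cbr2 at 1.14. The ranges of neighbours in this order did not overlap, except for Akr1b8 (56.1 to 66.1) and Cbr3 (43.3 to 64.7). Akr1a1 made up 52.1% of the summed RPKM of the 8 genes in control and 51.8% in hPARG cells, and Cbr2 0.232% and 0.0416%. The order was the same in hPARG dishes, where no neighbours overlapped. There Cbr4, at 2.13, stood 11.1 times above Cbr2, at 0.191, against 1.74 times in control. Among all tested genes the control level of Akr1a1 exceeded 98.0%, that of Akr1b3 93.7%, and that of Dcxr 72.4%. The order depends on the length used. Scaled by the union of annotated exons, which is 8384 bases for Akr1b3, that gene moved from the second place to the fifth in both groups, next to Dcxr and overlapping it.

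**Figure D2:**
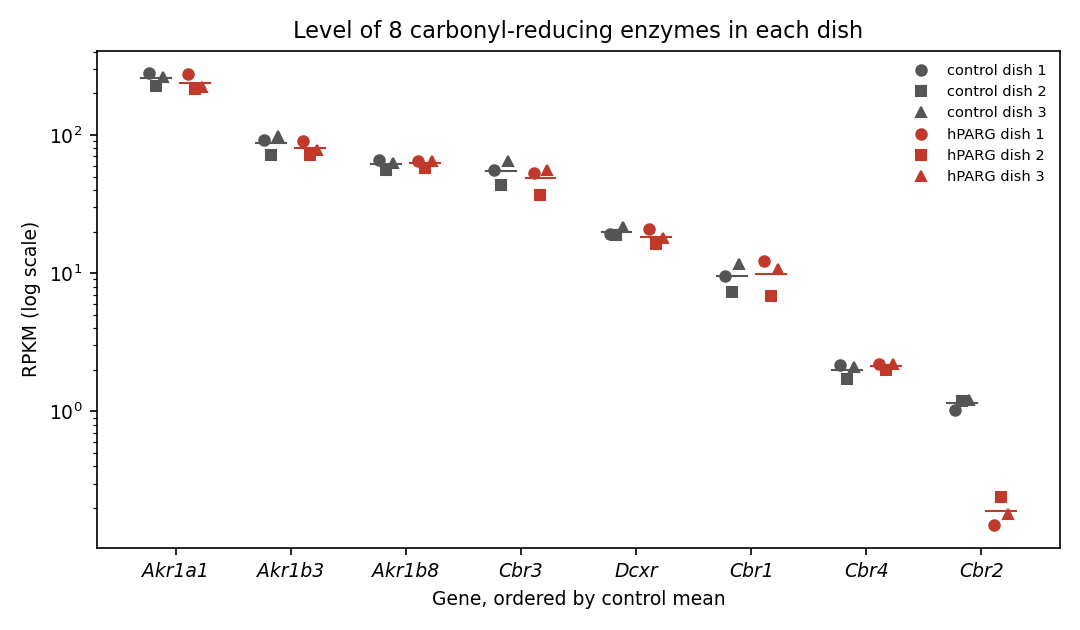
Deposited RPKM on a log axis for each of the 8 genes, ordered by the control mean, with grey symbols for the 3 control and red symbols for the 3 hPARG dishes and short lines for the group means. Cbr2 is at 1.02 to 1.21 in control and at 0.150 to 0.242 in hPARG dishes, and for the other genes the symbols of the groups overlap.

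Within each group the members split by how they stood in the dishes numbered 2. All 7 members other than Cbr2 had their lowest CPM in dish 2 of both groups, a pattern that 31.1% of the tested genes showed. The deviation of Cbr1 from its group mean in these dishes was -0.39 in control and -0.53 in hPARG on the log2 scale, that of Cbr3 -0.36 and -0.42, and that of Akr1b3 -0.32 and -0.19. Cbr2 did not share it, at 0.02 in control dish 2 and 0.24 in hPARG dish 2, the latter resting on 7 counts. Across all tested genes the deviation of every dish ran with the exon length. The dishes numbered 2 had a Spearman's rho of 0.530 (control) and 0.521 (hPARG), which was of the opposite sign in the other dishes, at -0.252 and -0.513 in control dishes 1 and 3 and -0.467 and -0.320 in hPARG dishes 1 and 3 (11509 genes, which share libraries and are not independent). Deviations from a group mean cancel out within the group for each gene, so the opposite sign in the other dishes is partly built in. Of the 7 members, Cbr1, Cbr3, Dcxr, Akr1b8 and Akr1a1 have between 1144 and 2750 annotated exon bases, and Cbr4 and Akr1b3 have 6259 and 8384. Cbr2 has 1327. The part of gene length in the members' deviations was not tested.

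**Figure D3:**
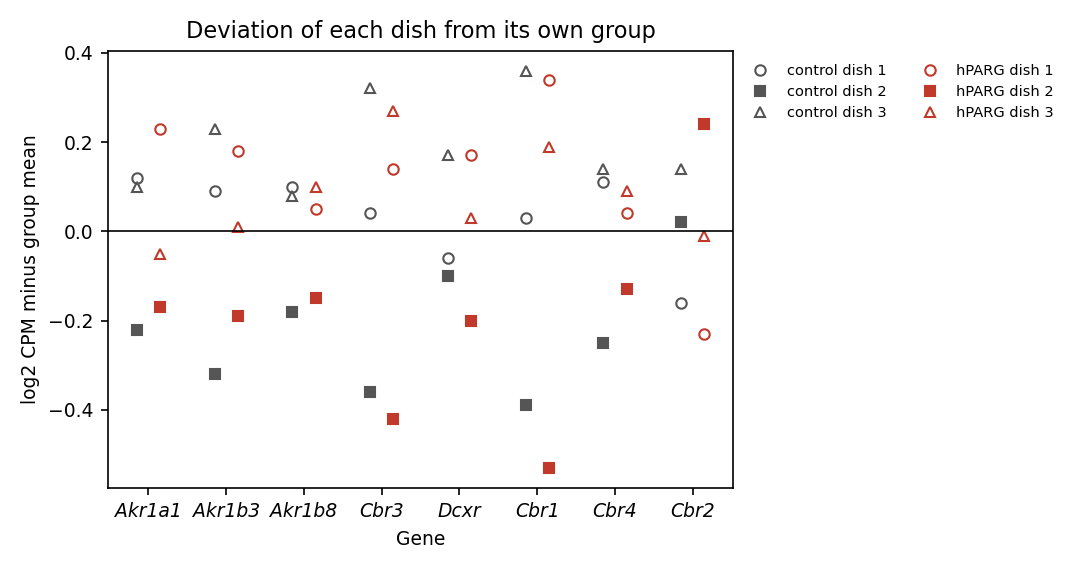
Log2 CPM of each dish minus the mean of its group (y axis) for the 8 genes (x axis), with grey symbols for control, red symbols for hPARG and filled squares for the dishes numbered 2. The filled squares are the lowest symbols of their group for every gene but Cbr2, where they lie at 0.02 and 0.24.

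The genes around Cbr2 showed no difference of its size. This says little about the locus, since only 7 of the 11509 tested genes had a more negative log2 fold change than Cbr2. Within 200 kb of Cbr2 on chromosome 11, measured between the lower ends of the genes, 20 other genes were tested. In edgeR 0 of them passed an FDR of 0.05, against 0.0869% of all tested genes. At an unadjusted p under 0.05 there was 1 (Pycr1, of proline synthesis), against 3.95%. The median log2 fold change was -0.01, with values from -0.11 to 0.37. For 1 of the 20 genes the groups did not overlap, against 9.62% of all tested genes. The nearest was Dcxr. Rac3, a small GTPase 8.02 kb away, held 14 to 24 counts in control and 19 to 26 in hPARG dishes, with a log2 fold change of 0.31 (SE 0.333, FDR = 0.999). Those of Lrrc45 and Cenpx, a component of the centromere and of DNA repair complexes, were 0.07 and 0.09 (SE 0.112 and 0.183). On the other side, Fasn, the fatty acid synthase 76.4 kb away, had a log2 fold change of 0.01 (SE 0.276). The values of Hmga1b, Rfng, Gps1, Aspscr1 and Dus1l lay between -0.09 and 0.10. Around Cbr1 and Cbr3 there were 3 and 4 tested genes within 200 kb, around Akr1b3 and Akr1b8 3 and 2, around Akr1a1 11 and around Cbr4 1. Of these 0 had an FDR under 0.05 and 0 an unadjusted p under 0.05 in edgeR, which says little for so few genes. Around Akr1a1 the groups did not overlap for 3 of the 11 genes, whose values lay between -0.33 and 0.23. Around Cbr1, Cbr3, Cbr4, Akr1b3 and Akr1b8 they overlapped for every tested gene.

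**Figure D4:**
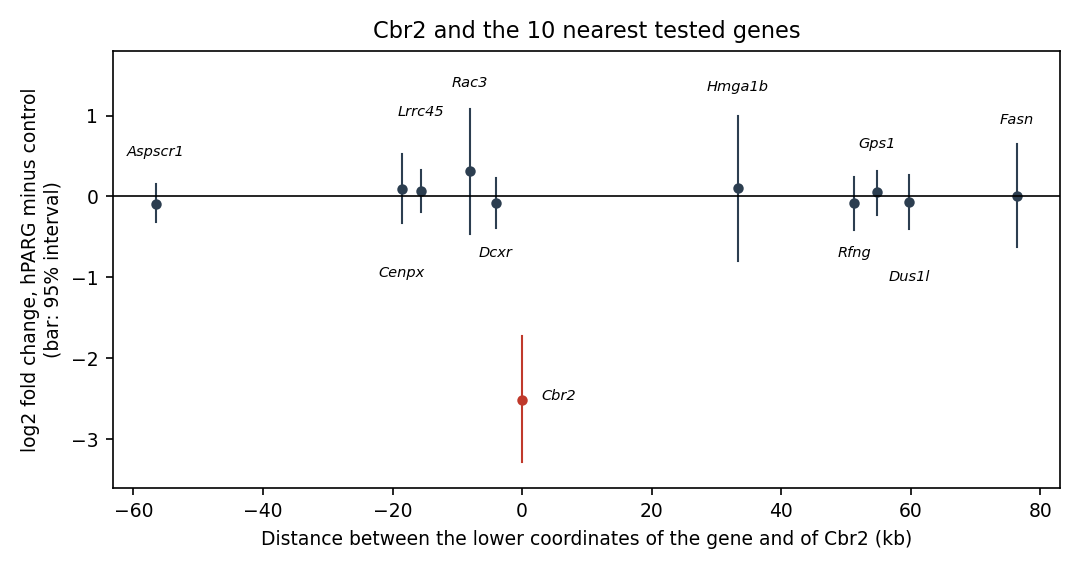
Log2 fold change of hPARG against control (y axis, bars for the 95% interval) of Cbr2 and the 10 nearest tested genes, placed by the distance between the lower coordinates of the genes in kb (x axis). Cbr2 at -2.51 stands alone below, and the 10 neighbours lie between -0.09 and 0.31. The point and bar of Cbr2, chosen on this same comparison, are a description and no test.

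The genes most like Cbr2 over the 6 dishes, by Pearson's r of log2 CPM, were Grwd1 (r = 0.987), C3 (0.987), Gypc (0.985), Ccl20 (0.984) and Slc30a1 (0.983). All 5 were lower in hPARG dishes, and since they share the 6 libraries and the split between the groups, r describes that split first. C3, the central complement protein, averaged 6.20 ± 1.04 CPM over the control and 0.886 ± 0.148 CPM over the hPARG dishes (SD, n = 3), and Ccl20, a chemokine, at 11.1 ± 3.37 and 1.12 ± 0.140 CPM (SD, n = 3). Grwd1, Gypc and Slc30a1, a zinc exporter, had smaller log2 fold changes of -0.27, -0.26 and -0.48. The r of the other members with Cbr2 ran from -0.472 for Cbr4 to 0.231 for Dcxr. The genes most like Dcxr were Selenoo (r = 0.995), 3110001I22Rik (0.993), Coq2 (0.992), Timmdc1 (0.991) and Ptcd2 (0.989), with log2 fold changes between -0.15 and -0.06.

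The enzymes around the members were read from the same fit in 5 lists, together with targets of NRF2, the transcription factor that drives many carbonyl reductases under oxidative stress. Of 79 tested genes in these 6 lists, 0 passed an FDR of 0.05 in edgeR's quasi-likelihood test and 6 had an unadjusted p under 0.05, against 0.0869% and 3.95% of all tested genes, while DESeq2 passed 1, Hmox1, among 48 of the 12637 genes it tested. Of 14 other aldo-keto reductases 3 were tested, Akr7a5, Akr1e1 and Akr1c14, with log2 fold changes of -0.14, 0.14 and -0.10. Akr1b7 held 6 to 15 counts per dish and Akr1b10, the closest relative of Akr1b8 by shared windows, at most 1. Of 38 other short-chain dehydrogenases 27 were tested, with a median of -0.02. Hsd17b10, the most abundant of them at an RPKM of 307, had a log2 fold change of 0.07 (SE 0.219), and Rdh13, a mitochondrial retinol dehydrogenase, one of -0.29 (SE 0.0929, unadjusted p = 0.0149, edgeR FDR = 0.965). Hsd17b12 and Hsdl2 of the same list had values of -0.09 (SE 0.110) and 0.20 (SE 0.108).

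Of 21 genes listed as aldehyde and alcohol dehydrogenases, 15 were tested, with a median of -0.01. Most, but not all, of the list oxidise what the members reduce or interconvert both forms. Aldh3b1 had a log2 fold change of 0.56 (SE 0.219, edgeR FDR = 0.999), and Adh5, the formaldehyde-clearing enzyme and the most abundant of the list, one of -0.01. Those of Aldh18a1 and Aldh3a1 were 0.01 (SE 0.111) and -0.46 (SE 0.501). Of 18 genes for the supply of NADPH 16 were tested, with a median of -0.01, and Tkt and Pgd of the pentose phosphate pathway, the most abundant, had log2 fold changes of 0.06 and -0.14. Me3, a mitochondrial malic enzyme, averaged 2.34 ± 0.138 CPM over the control and 3.48 ± 0.164 CPM over the hPARG dishes (SD, n = 3), with a log2 fold change of 0.57 (SE 0.173, edgeR FDR = 0.910). In the polyol and uronate pathways 8 of 10 genes were tested, with a median of 0.04. Sord, which turns the sorbitol of Akr1b3 into fructose, had a log2 fold change of -0.08 (SE 0.150), and Xylb, the xylulokinase that acts after Dcxr, one of -0.41 (SE 0.162, edgeR FDR = 0.999). Ugdh, which makes UDP-glucuronate, and Slc5a3, a myo-inositol transporter, had values of 0.03 and 0.26 (SE 0.0952 and 0.164). All 10 NRF2 targets were tested, with a median of -0.08 and 2 above 0. Hmox1, the heme oxygenase, held 2053, 1848 and 1738 counts in control and 1255, 1461 and 1385 in hPARG dishes. These groups did not overlap, as for 6.00% of the tested genes in that direction, at a log2 fold change of -0.41 (SE 0.0911, edgeR FDR = 0.468). Prdx1 and Txnrd1, the most abundant of the list, had values of 0.12 and -0.15.

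Markers of the cells in which Cbr2 is best known were at low counts or absent. Of 8 adipocyte markers 0 were tested, Plin1, Cfd and Cidec had 0 counts in all dishes, and Adipoq had at most 1. Lpl, the lipoprotein lipase, held 10, 16 and 22 counts in control and 7, 8 and 8 in hPARG dishes. It averaged 0.705 ± 0.324 CPM over the control and 0.339 ± 0.0245 CPM over the hPARG dishes (SD, n = 3). The groups did not overlap, but Lpl failed the filter on low counts. The 6.00% of tested genes that did not overlap in that direction all passed it, so that share is no background for Lpl. Fabp4 held 0 to 9 counts in control and 2 to 5 in hPARG dishes, and Pparg 3 to 5 and 3 to 10. In mean CPM Fabp4 stood at 0.180 in control and 0.176 in hPARG dishes, and Pparg was higher in hPARG dishes, at 0.281 against 0.170. The summed RPKM of the list was 0.277 to 0.718 in control and 0.255 to 0.534 in hPARG dishes. Of 6 lung epithelial markers 0 were tested, Scgb3a2 and Sftpc had 0 counts, Scgb1a1 had at most 2 and Foxj1 at most 4, and the sum lay between 0.0887 and 0.186 in all dishes. The 6 epithelial markers, led by Krt8 with 2 to 12 counts and Krt18 with 2 to 7, summed to at most 0.464. Of 6 macrophage markers Lyz2 and Cd68 were tested, with log2 fold changes of -0.07 and -0.20, Adgre1 had 0 counts, and the sum was 3.69 to 6.22 in control and 3.56 to 5.84 in hPARG dishes. Of 4 endothelial markers 1 was tested, Kdr, at a log2 fold change of 0.03. Cdh5, not tested, held 10, 6 and 11 counts in control and 3, 4 and 5 in hPARG dishes. These did not overlap, at counts too low for the filter, so the 6.00% of the tested genes is no background for Cdh5 either. The summed RPKM of the list was 0.173 to 0.247 in control and 0.130 to 0.152 in hPARG dishes. All 8 fibroblast markers were present, with a summed RPKM of 3181 to 3559 in control and 3386 to 3811 in hPARG dishes. Their median log2 fold change was 0.34 against 0.00 over all tested genes, with 8 of 8 above 0, 0 at an FDR under 0.05 in edgeR and in DESeq2, and 3 at an unadjusted p under 0.05 (3.95% of all tested genes), namely Col1a1 at 0.58 (SE 0.213), Col3a1 at 0.39 (SE 0.122) and Thy1 at 0.30 (SE 0.101). The most abundant of them, Vim and S100a4, had values of 0.08 and 0.12. Their part in the values of the members was not tested.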

How the data were processed

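Poly(A) RNA of 3 control and 3 hPARG dishes was read in pairs of 150 bp. Adapters were trimmed and the reads mapped by the authors to GRCm38 (Ensembl release 96) in CLC Genomics Workbench 12.0 with its default settings, and the sources used here do not say whether strand was used. The authors deposited whole-number counts per gene, without normalization, and RPKM values, whose gene lengths and library total are not given. The 12 columns of TPM and CPM and the columns of the authors' own comparison (fold changes, p-values and FDR) were not used. The deposited gene identifiers (41819 of 41819) were found in GENCODE release M21, which gave the coordinates.

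Counts were filtered with filterByExpr (minimum count 10), TMM-normalized and tested by quasi-likelihood (glmQLFit, glmQLFTest) in edgeR 4.0.16 under R 4.3.3, with all 6 dishes and no block, since the methods name no pairing. FDR is Benjamini-Hochberg over all 11509 tested genes, and genes were called under 0.05 and above 2-fold. Standard errors are the absolute log2 fold change over the square root of F, and 95% intervals use the t distribution of the fit. Log2 CPM used a prior count of 2. On simulated counts with 200 genes changed 4-fold, 98.5% of those tested were called (11403 genes tested), and 1.52% of calls fell on genes left unchanged. Whether these rates hold for the deposited counts, in which the dishes numbered 2 stood apart, was not tested.

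Depth was 21619908 to 25263818 counts per dish, and 3 dishes per group limit the precision. Levels of different genes were compared per length only, in RPKM and, as an alternative, in CPM per kilobase of annotated exons. Coding sequences (GENCODE M21) were aligned with Biopython 1.88 in place of proteins, which were not used here, and promoters came from RefSeq. The coding comparison, shared windows, motif search and the count of lowest dishes were added after values were seen.

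The members and the gene lists were chosen with earlier results of these data known. Named genes were all members, in each list the 2 with the highest RPKM and that with the smallest p in each direction, the 5 most like Cbr2 and Dcxr, and the 10 nearest neighbours of Cbr2. Akr1c14, Akr1b7, Akr1b10, Pycr1, Pparg, Col1a1, Thy1 and the markers at or near 0 were named beyond this rule, after their values were seen. Alternatives were RLE factors, library size only, other filters, DESeq2 1.42.0, the replicate number as a block, and dishes left out.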

Additional observations from a re-analysis of the deposited data

How the results depend on the processing

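Across 13 alternatives, 0 of the 7 members other than Cbr2 were called, and none passed an FDR of 0.05, in edgeR or DESeq2. The log2 fold change of Cbr2 lay between -2.69 and -2.37 over the 12 alternatives that kept it, and was -2.68 without both dishes numbered 2. Asking for at least 10 counts in every dish removed it. With a dish left out in turn it lay between -2.69 (without hPARG dish 2) and -2.37 (without hPARG dish 1). Members with small differences changed sign when a dish was left out, the range over these 6 fits being -0.09 to 0.31 for Cbr1, -0.30 to 0.04 for Cbr3, -0.17 to 0.01 for Dcxr, -0.23 to 0.03 for Akr1b3, -0.03 to 0.13 for Akr1b8 and -0.19 to 0.01 for Akr1a1. Cbr4 kept its sign, at 0.02 to 0.20.

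Same-numbered dishes deviated from their group means with r = 0.0963, 0.610 and 0.168 for numbers 1, 2 and 3, so 2 of 3 were over 0.1 and the numbers were not taken to pair the dishes. The dishes numbered 2 correlated best with each other, but not every dish did so with its own number, since hPARG dish 1 had r = 0.335 with control dish 3. With the replicate number as a block, 23 genes were called against 10 without it (330 against 10 at any fold), the log2 fold change of Cbr2 was -2.52, and those of the other members lay between -0.14 and 0.14. The block lowered the SE of Cbr3 from 0.222 to 0.0624. Cbr3 then had an unadjusted p of 0.0390 and an FDR of 0.254 in edgeR's quasi-likelihood test, the lowest of the members other than Cbr2. In the 12 gene lists the block passed 7 of 90 tested genes at an FDR of 0.05, against 330 of 11509 over all tested genes. Without the block edgeR passed 0 of the 90. The 7 were Rdh13, Aldh1l2, Hmox1 and, from the 8 fibroblast markers, Col1a1, Col3a1, Thy1 and Fn1. The number of called genes was 16 without a filter on low counts and 22 with DESeq2 (48 at any fold). It was 19 without both dishes numbered 2 (40 at any fold), and between 3 (without hPARG dish 1) and 13 with a dish left out, with 5 without hPARG dish 3. Per kilobase of annotated exons, 2 pairs of neighbours in the order of levels overlapped in control and 2 in hPARG, against 1 and 0 in RPKM. The planned identity of proteins was not run. At this depth Cbr2 is close to the floor in hPARG dishes, which limits the precision of its fold change.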
